A study of Homo sapiens with 6 samples.

Results

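The genes described are 10 genes of mitochondrial fatty acid oxidation, CPT1A, CPT2, ACADVL, ACADL, ACADM, ACADS, HADHA, HADHB, ETFA and ETFDH. They were taken from a set list, as all probe sets whose annotation gives exactly 1 of these symbols. All 10 were represented, by 18 of the 19065 probe sets that carry a single gene symbol, out of 11963 genes in all. CPT1A had 4 probe sets, HADHA 3, and ACADL, CPT2 and ETFDH 2 each, so probe sets of these genes share a transcript and are not separate observations. Expression was compared between LCCTam, a tamoxifen-resistant variant of SUM44, and SUM44 itself, which the labels describe as an ER+/PR+ line of invasive lobular breast carcinoma. LCCTam was taken at passages 8, 9 and 10 and kept in 500 nM 4-hydroxytamoxifen, the active metabolite of tamoxifen. SUM44 was taken at passages 74, 75 and 76, and its growth protocol names no drug. Both lines grew in the same Ham's F12-based medium, and LCCTam derives from SUM44, so they share its genetic background. Resistance, drug exposure and passage number therefore cannot be told apart. Whether LCCTam is a clone is not given in the sources used here.

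Mitochondrial beta-oxidation shortens fatty acids inside the mitochondrion. Acyl groups enter as acylcarnitines, which CPT1A on the outer membrane makes and CPT2 on the inner membrane turns back into acyl-CoA. Acyl-CoA dehydrogenases of overlapping chain-length preference open each cycle, and the trifunctional protein made of HADHA and HADHB completes it for long chains. Electrons from the dehydrogenases pass to the electron transfer flavoprotein, a dimer of ETFA and ETFB, and from there through ETFDH to ubiquinone. The estrogen-related receptors and the PPAR family are known regulators of the pathway, and ACADM is a known target of the estrogen-related receptors.

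Each sample was hybridized to its own Affymetrix array, with values on the log2 scale after RMA, the authors' normalization. Array medians were 5.92 to 5.95 in LCCTam and 5.94 to 5.97 in SUM44. The LCCTam passage 10 array stood apart. Its actin control was 1.92 higher at the 3' than at the 5' end on the log2 scale, against 0.90 to 1.15 on the other 5 arrays, and its 75th percentile was 7.5, against 7.68 to 7.78. It gave the lowest of the 3 LCCTam values for 14 of the 18 probe sets (77.8%), against 48.1% of all named probe sets. Among probe sets with a mean of at least 9 these were 7 of 7 here and 69.8% of all. Its effect on the differences was measured by leaving it out and by the actin difference as a covariate. Array weights were also used, but they change how much every array counts. Of the luminal epithelial markers KRT8, KRT18, KRT19, EPCAM, GATA3, FOXA1, ESR1 and PGR, all but PGR had means of 9.35 to 13.40 for their brightest probe set in both lines. PGR averaged 3.85 ± 0.01 in LCCTam and 3.85 ± 0.05 in SUM44 (SD, n = 3 each) at its 1 named probe set, near the bottom of the scale. The array measures RNA, and without detection calls this probe set does not tell whether PGR was expressed. The PR+ label was therefore not tested. ESR1, the estrogen receptor gene, was lower in LCCTam, at 11.08 ± 0.13 against 12.74 ± 0.23 in SUM44 (limma adjusted p = 0.0016). None of the markers of other cells passed the test, and their part in the results was not tested. The summed level of 7 fibroblast markers was 8.51 to 8.58 on the log2 scale in LCCTam and 8.52 to 8.55 in SUM44. For 4 leukocyte and endothelial markers it was 7.28 to 7.42 in LCCTam and 7.27 to 7.47 in SUM44. For 4 adipocyte markers it was 7.68 to 7.77 in LCCTam and 7.44 to 7.59 in SUM44, and for the basal keratins KRT5 and KRT14 it was 6.0 to 6.37 in LCCTam and 5.89 to 5.98 in SUM44. The luminal sum was 14.69 to 15.12 in LCCTam and 15.23 to 15.34 in SUM44.

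Within the pathway, ACADM was lower in LCCTam and no other of the 10 genes passed the test. Of the 18 probe sets, 0 rose, 1 fell and 17 did not pass at an adjusted p of 0.05 (limma, Benjamini-Hochberg over all named probe sets). In the same fit 7.37% of all named probe sets passed, 5.65% lower and 1.72% higher, so the count of 1 in 18 was near the background. An unadjusted p under 0.05 was reached by 3 of the 18, against 22.7% of all. LCCTam and SUM44 values were fully apart for 2 probe sets, of ACADM and CPT1A, both lower in LCCTam, against 16.6% of all probe sets lower without overlap and 29.6% in either direction. The median difference over the 18 was -0.15 (LCCTam minus SUM44, log2), with 12 negative and 6 positive, and 0.013 over all named probe sets. Without LCCTam passage 10 the medians were -0.047 over the 18 and 0.026 over all, ACADM alone passed, and 11.7% of all probe sets passed. With limma's array weights 3 of the 18 passed against 32.6% of all, adding HADHA 208629_s_at at -0.42 and CPT2 204263_s_at at 0.26. These weights were 5.40, 0.71 and 0.198 for LCCTam passages 8, 9 and 10, so the LCCTam side rests mainly on passage 8.

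**Figure D1:**
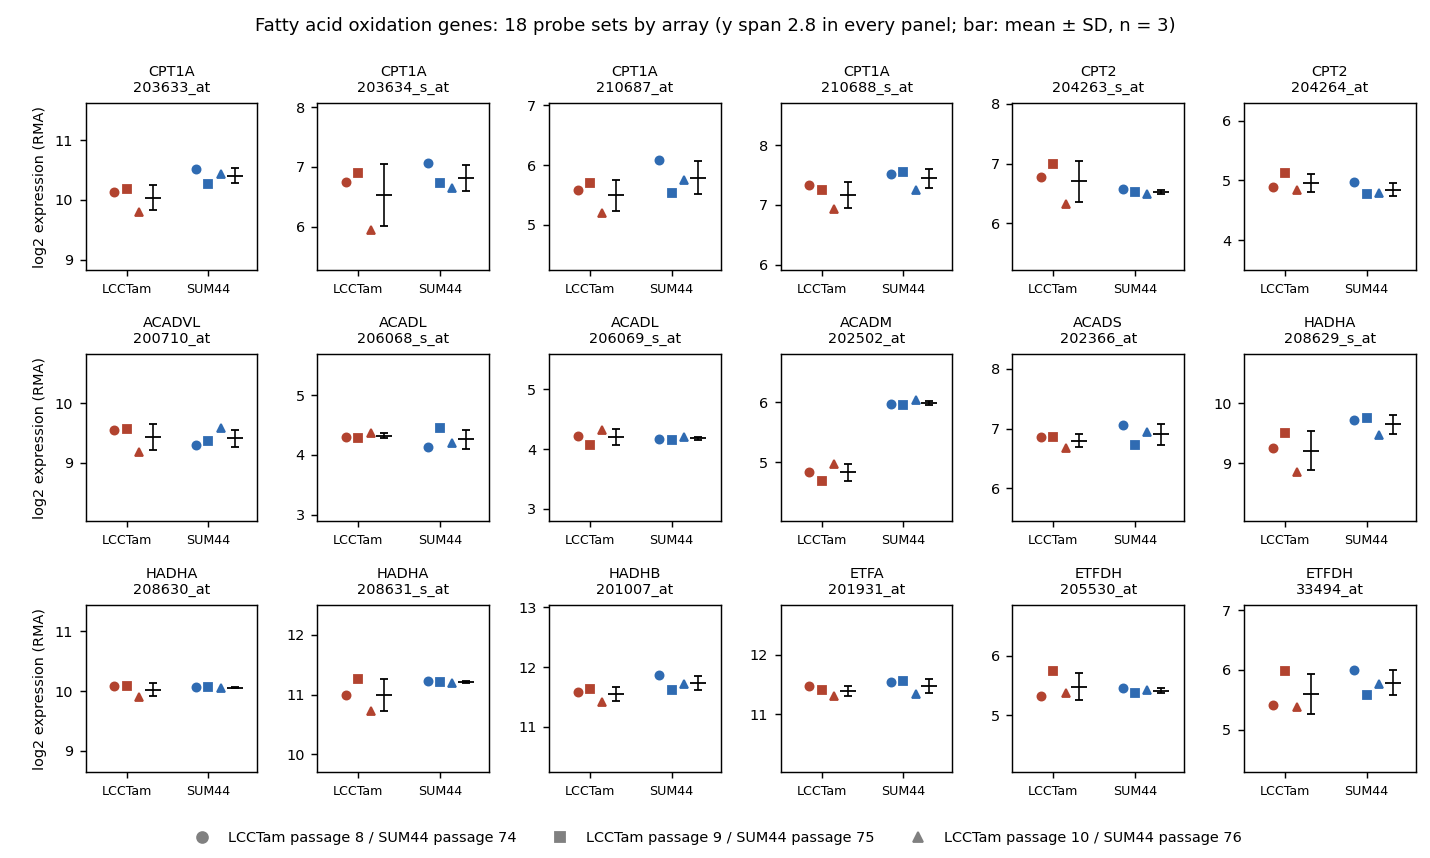
Log2 expression (RMA) of the 18 probe sets, 1 panel each in the order of the pathway, with the 3 LCCTam arrays left of the 3 SUM44 arrays, a marker for each passage and the mean ± SD (n = 3) beside them. The ACADM values lie at 4.69 to 4.97 in LCCTam and at 5.96 to 6.04 in SUM44, and passage 10 is often the lowest LCCTam point.

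The medium-chain dehydrogenase ACADM catalyses the opening step for fatty acids of medium length, and its inherited loss is a common defect of fatty acid oxidation. Its probe set 202502_at read 4.84, 4.69 and 4.97 in LCCTam at passages 8, 9 and 10, against 5.98, 5.96 and 6.04 in SUM44 at passages 74, 75 and 76. All LCCTam values lay below all SUM44 values. Means were 4.83 ± 0.14 in LCCTam and 5.99 ± 0.04 in SUM44 (SD, n = 3 each). ACADM fell by 1.16 on the log2 scale (SE 0.10, 95% interval -1.39 to -0.93, limma adjusted p = 0.0017), or 2.24-fold lower. Without LCCTam passage 10 the difference was -1.23 (adjusted p = 0.00205). The level was modest, at percentile 25 of all named probe sets in LCCTam and 48.8 in SUM44. No detection calls were used here, so the background level is unknown and the fold may be compressed. ACADM was read by 1 probe set, so no other probe set of the gene could be set beside it. From bulk RNA, fewer cells with the transcript and less transcript per cell cannot be told apart.

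The ACADM promoter is shown because ACADM is the gene that changed and a known target of the estrogen-related receptors. These are the 250 bases before its annotated start, on the plus strand (RefSeq, GRCh38.p14, chr1:75724459-75724708), 5' to 3', with capitals marking the GC box GGGCGG on either strand.
ACADM: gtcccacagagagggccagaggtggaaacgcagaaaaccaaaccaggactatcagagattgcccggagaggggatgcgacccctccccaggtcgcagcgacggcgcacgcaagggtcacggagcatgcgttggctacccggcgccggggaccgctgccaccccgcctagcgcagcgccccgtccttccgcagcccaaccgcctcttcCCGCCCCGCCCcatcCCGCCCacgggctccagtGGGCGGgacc
It is 70.8% G and C, with 25 CpG pairs and 4 GC boxes, 2 of which overlap by 1 base, and all 4 lie in the last 43 bases before the start. The GC box was chosen for search after the sequence was seen. It occurred in 7 of the 10 windows available for these genes (ACADVL has 2, and ETFDH none in the table). The only GC box of the HADHA window lies in the HADHB window too. Of 35116 promoter windows of 300 bases, searched on both strands, 45.0% held a GC box. The median G and C content was 65.3% in the 10 windows and 58.7% in all. The element of the estrogen-related receptors, TNAAGGTCA, searched on both strands like the others, had no match in these 10 windows and occurs in 0.951% of all windows. Its core AAGGTCA, which the longer element contains, had none either, against 3.92% of all windows. The PPAR and RXR element DR1, with up to 1 mismatch in each of its AGGTCA sites, had none, against 1.76%. With shares this low, any 10 windows would be likely to hold no match to each of these 3 elements. The lack of a match therefore does not tell whether ACADM or the other genes have such a site. These searches cover only the windows and these letters, and bases further upstream or downstream were not searched.

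Genes next to ACADM on its chromosome did not pass. Of the 5 nearest measured genes on each side, 0 of 10 passed, against 7.76% of all genes by their brightest probe sets. Their differences ran from -0.24 to 0.27 with a median of 0.0086. CRYZ, RABGGTB and PIGK averaged 7.23 or more in both lines, and the other neighbours 5.67 or less. A change in genes that dim may go unseen, so a change of the whole region was not tested.

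The genes whose values over the 6 arrays were most like those of ACADM were taken by the root mean square distance between log2 profiles centred on their means. TMEM33, an endoplasmic reticulum membrane protein gene, was closest at a distance of 0.033, with 7.30 ± 0.13 in LCCTam and 8.42 ± 0.07 in SUM44 (SD, n = 3 each). The transcription factor gene SP3 followed at 0.063, the RNA-binding protein gene RBM47 at 0.082, the kinase gene SNRK at 0.089 and the inositol transporter gene SLC5A3 at 0.094. Their differences were -1.12 for TMEM33, -1.08 for SP3, -1.05 for RBM47, -1.09 for SNRK and -1.06 for SLC5A3. With 6 arrays in 2 lines, a small distance can come from a difference between the lines of like size alone.

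The other dehydrogenases did not pass. ACADVL, which acts on very long chains, read 9.56, 9.57 and 9.19 in LCCTam against 9.30, 9.36 and 9.58 in SUM44. These values overlapped, with a difference of 0.02 (95% interval -0.30 to 0.34, limma adjusted p = 0.941), and 0.15 without LCCTam passage 10. ACADS, which acts on short chains, read 6.86, 6.85 and 6.67 in LCCTam against 7.07, 6.72 and 6.94 in SUM44. These also overlapped, with a difference of -0.11 (interval -0.39 to 0.16, adjusted p = 0.602), and -0.05 without LCCTam passage 10. ACADL, the long-chain enzyme, was dim in both lines, between 4.07 and 4.37 over its 2 probe sets in LCCTam and between 4.13 and 4.44 in SUM44. Its probe sets differed by 0.06 (interval -0.18 to 0.30) and 0.03 (interval -0.19 to 0.25), and by 0.04 and -0.03 without LCCTam passage 10. At percentiles of 14 or less the array does not tell whether ACADL was expressed.

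In the carnitine shuttle, neither gene passed. CPT1A makes acylcarnitines in the step that malonyl-CoA inhibits. Its brightest probe set 203633_at read 10.14, 10.18 and 9.80 in LCCTam, against 10.52, 10.27 and 10.43 in SUM44. Every LCCTam value lay below every SUM44 value. The difference was -0.37 (SE 0.13, interval -0.67 to -0.06, unadjusted p = 0.0244, limma adjusted p = 0.146). The other 3 CPT1A probe sets overlapped between the lines and differed by -0.30, -0.28 and -0.28. All 4 were lowest at LCCTam passage 10. Without that array the 4 differences were -0.25, 0.012, -0.15 and -0.16, for 203633_at, 203634_s_at, 210687_at and 210688_s_at in that order.

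CPT2, which turns acylcarnitines back into acyl-CoA in the matrix, differed by 0.17 (interval -0.22 to 0.56, adjusted p = 0.588) at probe set 204263_s_at. Its values were 6.77, 7.0 and 6.33 in LCCTam, against 6.57, 6.52 and 6.50 in SUM44. LCCTam passages 8 and 9 were above all SUM44 arrays and passage 10 below them, and without passage 10 the difference was 0.36 (adjusted p = 0.0629). The dimmer probe set 204264_at differed by 0.11, with 4.83 to 5.12 in LCCTam and 4.77 to 4.96 in SUM44.

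The 2 genes of the trifunctional protein lie head to head, with annotated starts 307 bases apart, so their promoter windows overlap. The shared stretch is shown because it lies upstream of both genes (RefSeq, GRCh38.p14, chr2:26244689-26244882), printed 5' to 3' on the plus strand, on which HADHB reads rightward, with the GC box in capitals.
HADHA and HADHB: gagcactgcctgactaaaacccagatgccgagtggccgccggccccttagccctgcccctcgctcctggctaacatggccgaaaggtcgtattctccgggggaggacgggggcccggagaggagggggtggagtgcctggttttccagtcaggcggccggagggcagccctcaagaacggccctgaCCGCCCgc
These 194 bases are 68.6% G and C and hold 1 GC box.

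HADHA, the alpha subunit, and HADHB, the beta subunit that carries the thiolase, did not pass. HADHB read 11.59, 11.63 and 11.42 in LCCTam against 11.86, 11.62 and 11.72 in SUM44, a difference of -0.19 (interval -0.42 to 0.05, adjusted p = 0.333). The brightest HADHA probe set, 208631_s_at, read 10.99, 11.27 and 10.73 in LCCTam against 11.23, 11.21 and 11.20 in SUM44, a difference of -0.22 (interval -0.55 to 0.11, adjusted p = 0.4). The lines overlapped for both genes. The other HADHA probe sets did not match each other in size, at -0.44 for 208629_s_at (unadjusted p = 0.0373, adjusted p = 0.187) and -0.03 for 208630_at. For 208629_s_at the values were 9.26, 9.50 and 8.86 in LCCTam, against 9.72, 9.76 and 9.46 in SUM44, with LCCTam passage 10 the lowest and passage 9 just above SUM44 passage 76. Without LCCTam passage 10 the HADHA differences were -0.27, 0.025 and -0.085, for 208629_s_at, 208630_at and 208631_s_at in that order, and that of HADHB was -0.12.

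**Figure D2:**
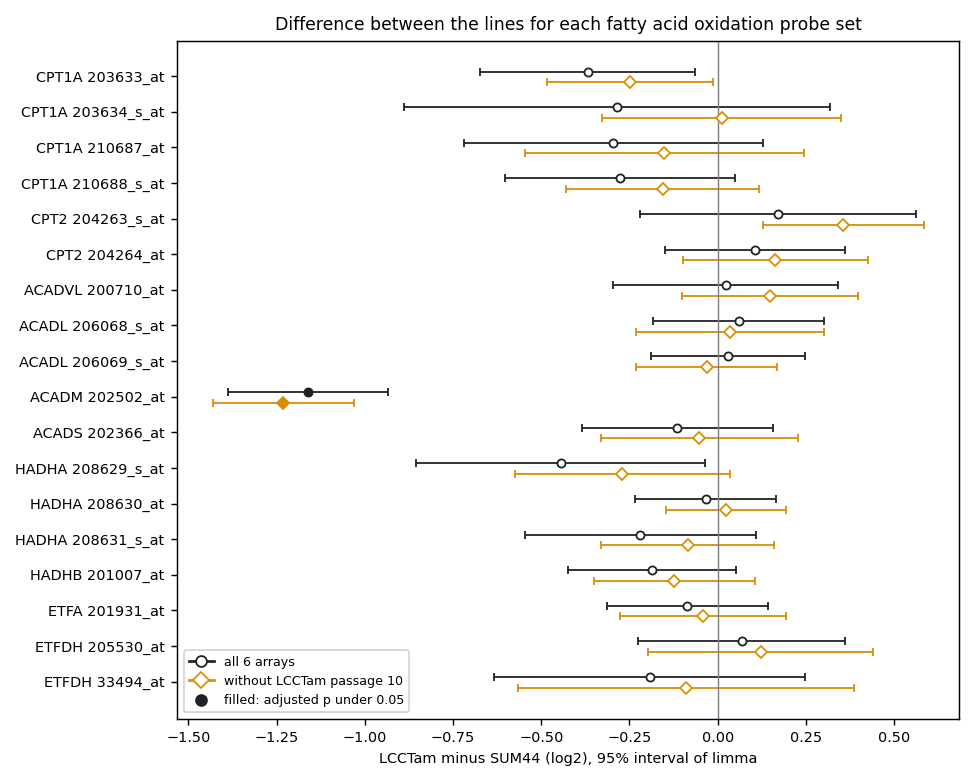
LCCTam minus SUM44 on the log2 scale (x axis) for each of the 18 probe sets, with limma's 95% interval, from all 6 arrays (circles) and without LCCTam passage 10 (diamonds), filled where the adjusted p was under 0.05. ACADM stands at -1.16 and -1.23 with filled symbols, and the open symbols of the other 17 lie between -0.44 and 0.36.

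In electron transfer, neither ETFA nor ETFDH passed, and ETFB, the other subunit of the flavoprotein, rose. ETFA, the alpha subunit, read 11.47, 11.40 and 11.30 in LCCTam against 11.53, 11.56 and 11.33 in SUM44. The lines overlapped, with a difference of -0.09 (SE 0.10, interval -0.31 to 0.14, adjusted p = 0.646), and -0.04 without LCCTam passage 10. ETFDH, the ubiquinone oxidoreductase, had 2 probe sets of opposite sign, 0.07 at 205530_at (interval -0.23 to 0.36) and -0.19 at 33494_at (interval -0.63 to 0.25), with 5.33 to 5.98 in LCCTam and 5.37 to 6.0 in SUM44 over both. Without LCCTam passage 10 they were 0.12 at 205530_at and -0.09 at 33494_at. ETFB, the beta subunit and partner of ETFA, is not among the 10 genes but belongs to the same dimer. It read 9.06, 8.80 and 8.89 in LCCTam, against 7.13, 7.52 and 7.72 in SUM44. All LCCTam values were above all SUM44 values, with means of 8.92 ± 0.13 in LCCTam and 7.46 ± 0.30 in SUM44 (SD, n = 3 each). ETFB rose by 1.46 (SE 0.16, interval 1.08 to 1.84, limma adjusted p = 0.0041), or 2.75-fold, and by 1.48 without LCCTam passage 10 (adjusted p = 0.00787). The intervals of ETFA and ETFB do not meet, and the difference between the 2 genes' changes was not tested itself.

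Of 14 other genes of mitochondrial beta-oxidation 11 were measured, and 1 rose, 0 fell and 10 did not pass, counting each gene by its brightest probe set. By this count 7.76% of all genes passed, 2.03% higher and 5.73% lower. The list's median was 0.021, against 0.017 for all genes. ETFB was the gene that passed. SLC25A20, the carrier that exchanges carnitine for acylcarnitine between CPT1A and CPT2, read 8.05, 8.10 and 7.46 in LCCTam against 7.36, 7.22 and 7.36 in SUM44. These did not overlap, but the difference of 0.56 (interval 0.15 to 0.97) did not pass (adjusted p = 0.111). HADH, the dehydrogenase of the third step for shorter chains, showed -0.13 at its brightest probe set, and spread widely within SUM44, from 8.87 to 9.63.

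Genes that bring fatty acids into the cell and activate them included SLC27A2, which rose. Of 15 genes 12 were measured, and by the brightest probe set 1 rose, 0 fell and 11 did not pass (median 0.0054). Of all genes, 2.03% rose and 5.73% fell by this count. SLC27A2, a fatty acid transporter and very long-chain acyl-CoA synthetase, read 9.16, 8.87 and 9.08 in LCCTam against 7.77, 7.74 and 8.07 in SUM44. It rose by 1.18 (SE 0.13, adjusted p = 0.00393), or 2.26-fold, and its other probe set rose by 1.11 (adjusted p = 0.0057). Without LCCTam passage 10 the SLC27A2 rise was 1.16. DBI, the acyl-CoA binding protein gene, gave -0.42 at its brightest probe set (adjusted p = 0.0565), while another of its 3 probe sets passed at -0.46 (adjusted p = 0.0385). All 3 DBI probe sets carry the suffix _x_at, which marks probes that can bind other transcripts.

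Among peroxisomal oxidation genes, 13 of 16 were measured, and 0 rose, 2 fell and 11 did not pass (median -0.024). By the same count 2.03% of all genes rose and 5.73% fell. ACOX2, the peroxisomal oxidase of branched chains and bile acid intermediates, read 6.05, 6.03 and 6.18 in LCCTam against 8.33, 8.20 and 8.52 in SUM44. It fell by 2.26 on the log2 scale (SE 0.11, adjusted p = 0.000266), or 4.79-fold lower, with -2.31 without LCCTam passage 10. PHYH, which starts the alpha-oxidation of phytanic acid, read 8.91, 8.87 and 8.44 in LCCTam against 9.73, 9.60 and 9.60 in SUM44. PHYH fell by 0.91 (SE 0.14, adjusted p = 0.0124), with -0.76 without LCCTam passage 10, and leaving out SUM44 passage 75 ended the call (-0.93, adjusted p = 0.0657). Both genes lay wholly below SUM44 in LCCTam, as did 16.6% of all named probe sets. Of 6 other dehydrogenases that pass electrons to the flavoprotein 4 were measured, IVD, ACADSB, ACAD8 and GCDH, and 0 passed in limma, with differences of -0.018 to 0.16 at their brightest probe sets. Of their 7 probe sets 1 had an unadjusted p under 0.05, against 22.7% of all named probe sets.

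**Figure D3:**
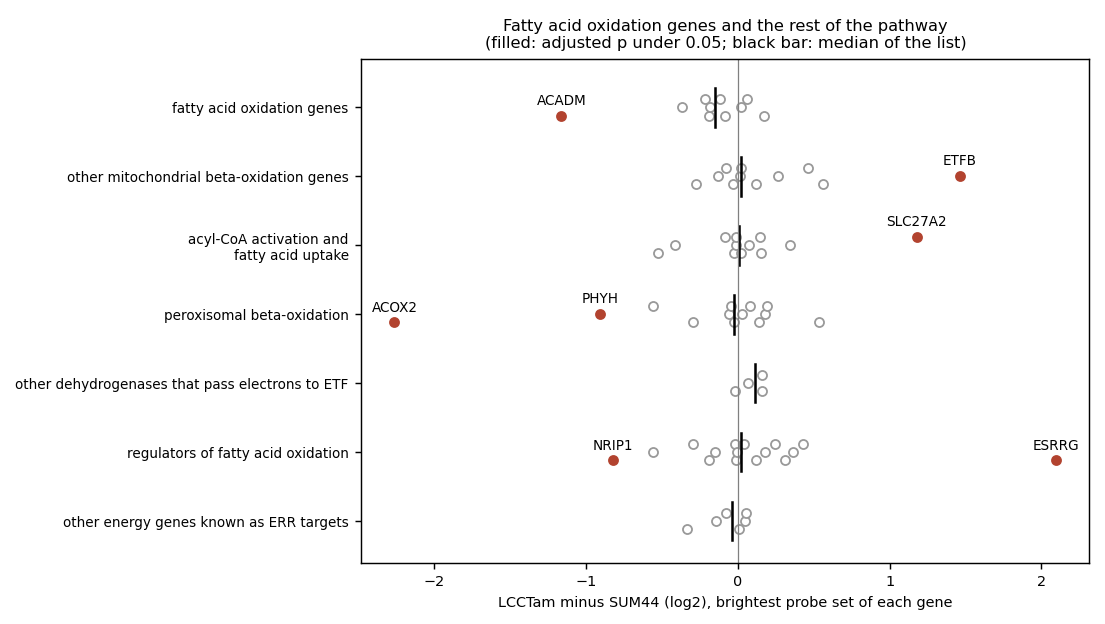
LCCTam minus SUM44 on the log2 scale (x axis) for the brightest probe set of each measured gene, in rows for the 10 genes and the 6 other lists, filled and named where the adjusted p was under 0.05, with a black bar at the list's median. ACADM at -1.16 is the only filled point of the top row, and ETFB at 1.46, SLC27A2 at 1.18, ACOX2 at -2.26, PHYH at -0.91, ESRRG at 2.10 and NRIP1 at -0.82 are those of the other rows.

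Regulators of the pathway were measured for 16 of 18 genes, of which 1 rose, 1 fell and 14 did not pass (median 0.018). Counted likewise, 2.03% of all genes rose and 5.73% fell. ESRRG, an estrogen-related receptor, read 8.60, 9.19 and 9.55 in LCCTam against 7.10, 6.94 and 7.01 in SUM44 at its brighter probe set, a rise of 2.10 (SE 0.22, adjusted p = 0.0039), and of 1.88 without LCCTam passage 10. ACADM, a known target of this receptor family, was lower on the same LCCTam arrays. ESRRA, its relative, showed -0.016 at its brighter probe set (interval -0.29 to 0.26, adjusted p = 0.954). NRIP1, the corepressor RIP140, read 7.84, 7.85 and 8.01 in LCCTam against 8.5, 8.70 and 8.96 in SUM44, and fell by 0.82 (SE 0.13, adjusted p = 0.0138). Its other probe set gave -0.83 without passing (adjusted p = 0.0745). The call at the first was lost on leaving out LCCTam passage 8 (-0.79, adjusted p = 0.0679), LCCTam passage 9 (-0.80, adjusted p = 0.0538) or SUM44 passage 75 (-0.83, adjusted p = 0.0746), with the difference about as large. PPARGC1A, the coactivator PGC-1alpha, read 4.46, 4.36 and 4.59 in LCCTam against 5.13, 5.19 and 4.77 in SUM44, and its difference of -0.56 did not pass (adjusted p = 0.053). PPARA, PPARD and PPARG also did not pass. Of 7 other energy genes known as targets of the estrogen-related receptors 6 were measured, among them IDH3A, CYCS and PDK4. By the brightest probe set of each of these genes 0 passed in limma, with differences of -0.34 to 0.052. Of their 9 probe sets 1 had an unadjusted p under 0.05, against 22.7% of all named probe sets.

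**Figure D4:**
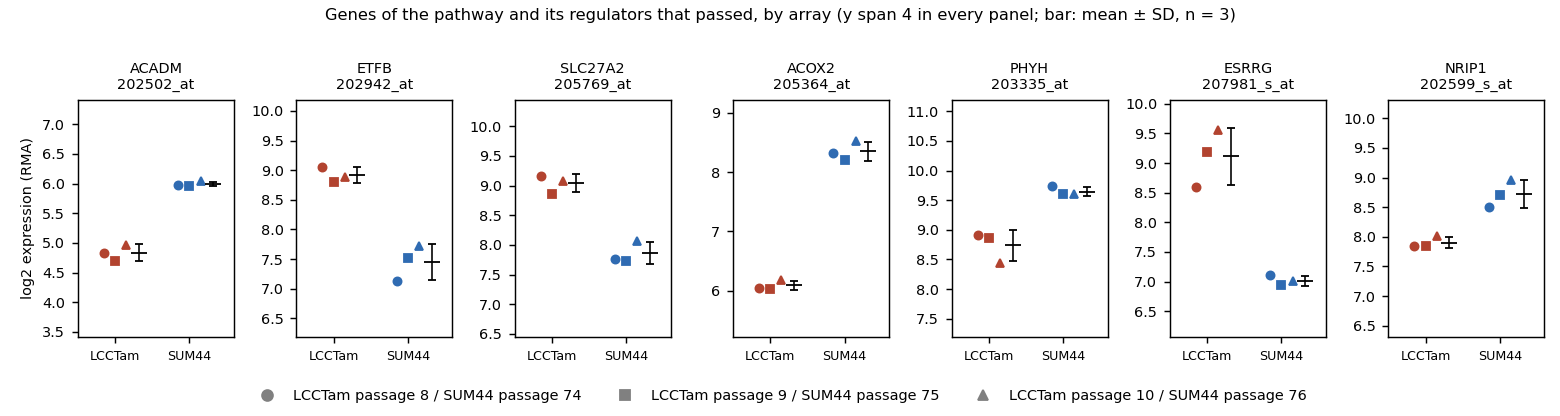
Log2 expression (RMA) by array of ACADM and of the 6 other genes of the lists that passed, with LCCTam left of SUM44, a marker for each passage and the mean ± SD (n = 3). The lines do not overlap in any of the 7 panels, but these genes were chosen because they passed. Of all named probe sets 29.6% did not overlap. ETFB, SLC27A2 and ESRRG are higher in LCCTam, and ACADM, ACOX2, PHYH and NRIP1 are lower.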

How the data were processed

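Total RNA of 3 LCCTam and 3 SUM44 samples was measured on Affymetrix arrays of 22283 probe sets. The deposited values are log2 expression made by the authors with RMA, as named in the submitters' processing notes. Its version and chip definition, and whether the 6 arrays went through it jointly, are not given here. Titles gave each sample's line and passage. Nothing in the labels says that passages were separate cultures, so p-values reflect only how these samples varied, which may be technical. Array batches are not named in the labels and were not used here. A batch that matched the lines could not be told apart from them.

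Names came from GEO's platform annotation of the probe sets, with symbols updated through Entrez identifiers to the RefSeq table of GRCh38.p14 (19059 probe sets). Controls (68), probe sets with several symbols (1043) and 2107 unlisted ones were left out. LCCTam minus SUM44 was tested using limma (version 3.58.1, R 4.3.3) by lmFit and eBayes, with no intensity filter, on 19065 probe sets, with Benjamini-Hochberg adjustment over all of them and a threshold of 0.05. Prior degrees of freedom were 3.01. Where a gene is counted once, its probe set with the highest mean stands for it. The rule for named genes took all 10 genes, the passing genes of each other list (up to 4), ESRRG, the 5 profiles nearest to a passing gene and its 5 nearest measured genes on each side. SLC25A20, HADH, DBI, ESRRA, PPARGC1A, the PPAR genes and the genes listed by name only were picked outside this rule, with values known. The genes and lists were chosen with earlier results of these data known. Tested on data simulated from these arrays (19065 probe sets, 50 changed per size), the fit recovered 34% of changes of 0.5 on the log2 scale, 76% of 1, 94% of 2 and 100% of 3. It made 157 calls, 5 of them false, against 1405 calls in the real fit. The simulated noise was drawn separately for each probe set, without an array that stood apart. These shares therefore need not hold for the real comparison. Alternatives changed the probe sets, scaling, weights, filter, variance prior, actin covariate, selection and arrays used. The number of arrays limits the precision.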

Additional observations from a re-analysis of the deposited data

How the results depend on the processing

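ACADM kept its direction and passed under all 15 alternatives run on it, between -1.25 and -1.09, with adjusted p from 3.31e-05 to 0.0181. Of 252 values of the 18 probe sets under alternatives, 233 kept their sign and side of the threshold and 0 lost a call. Alternatives that changed only the probe sets tested, the variance prior or the selection could change a call but not a difference. Under those the sign was fixed in advance, for ACADM as for the others. With array weights, where LCCTam passage 8 weighs 5.40 and passage 10 weighs 0.198, 3 of the 18 passed: ACADM, HADHA 208629_s_at at -0.42 (adjusted p = 0.0141) and CPT2 204263_s_at at 0.26 (adjusted p = 0.0456). That setting passed 6207 probe sets in all (32.6%), 2977 higher and 3230 lower, against 1405, 327 higher and 1078 lower, as reported. Array weights turned ACADL 206068_s_at to -0.037, ACADS to 0.028, ETFDH 205530_at to -0.020 and HADHA 208630_at to 0.018. The actin 3' minus 5' difference as a covariate turned ACADL 206069_s_at to -0.045, CPT1A 203634_s_at to 0.037 and HADHA 208630_at to 0.035, and quantile normalization, which passed 664 higher and 916 lower over all probe sets, turned HADHA 208630_at to 0.054. None of these sign changes passed the test, and their cause was not tested. Leaving out 1 array at a time gave 1 passing probe set of the 18 each time, and ranges of -0.0039 to 0.15 and -0.032 to 0.098 for ACADL, -0.043 to 0.15 for ACADVL, -0.47 to 0.012 for CPT1A 203634_s_at, -0.063 to 0.15 for ETFDH 205530_at and -0.065 to 0.025 for HADHA 208630_at. Over all probe sets it gave 382 (without SUM44 passage 75) to 2238 (without LCCTam passage 10), with 477, 653 and 899 without LCCTam passage 8, LCCTam passage 9 and SUM44 passage 76. The probe sets without the suffixes _x_at and _s_at gave 687, since fewer were tested. The submitters' selection of 2-fold and an unadjusted p gave 425, run here with an intensity floor of 10 on the linear scale for both line means. In the 6 other lists 6 genes passed, against 10 with quantile normalization, 22 with array weights and 4 to 12 with 1 array left out (12 without LCCTam passage 10). An alternative added after seeing the data, the mean of a gene's probe sets, gave 10 there, and CPT1A at -0.31 and HADHA at -0.23 without passing. No paired analysis was possible because the lines share no replicate number in the labels. No detection calls were used, so the signal over background of dim genes such as ACADL is unknown.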
